A study of Mus musculus with 4 samples.

Results

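Myc and Max binding was examined at 9 genes that write, maintain or remove cytosine methylation in mouse embryonic stem cells (ESCs). The genes were Dnmt1, Dnmt3a, Dnmt3b, Dnmt3l, Uhrf1, Tet1, Tet2, Tet3 and Tdg. They were chosen by name for their function, with earlier results of these data known. They are 9 of the 37310 annotated genes, of which 22380 are protein-coding. A gene was counted as bound at its promoter when a peak lay within 1 kb of any of its annotated transcription start sites (TSSs), and a window of 5 kb was also used.

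DNA methylation on CpG dinucleotides is established by the de novo methyltransferases Dnmt3a and Dnmt3b with their cofactor Dnmt3l, and it is copied after replication by Dnmt1, which Uhrf1 recruits to hemimethylated DNA. The Tet dioxygenases oxidize 5-methylcytosine, and the glycosylase Tdg excises the further oxidized bases, which base excision repair then replaces with unmodified cytosine. Both activities are present in ESCs. Myc binds DNA as a dimer with Max, and the preferred site of the dimer is the E-Box CACGTG. Max also pairs with other partners, so a Max peak does not by itself mark Myc.

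The study holds 4 samples, and 2 of them have a list of peaks, each from 1 ChIP-Seq library. Bio-Myc is Myc carrying an N-terminal tag that the biotin ligase BirA biotinylates in the cell. It was expressed from an EF1α promoter in 1 stable clone of the E14 ESC line. Streptavidin beads captured it, and a mock ChIP was the control. Max was immunoprecipitated with an antibody from wild-type parental E14 cells, with an IgG ChIP as its control, so the lists differ in cells, in reagent and in control as well as in protein. The sources differ on whether the mock cells carried BirA. There were no replicates, so no value below has an error between cultures, and no test was run. There were 3962 peaks in the Bio-Myc list (median score 129) and 11570 in the Max list (median score 160). The score is 10 times the negative log10 p-value and starts at 80 in the Bio-Myc list and 80.02 in the Max list. It depends on sequencing depth, which is unknown here, so scores were ranked only within a list. A missing peak means no call at this limit and this unknown depth, not an absence of the protein.

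Bio-Myc peaks lay within 1 kb of a TSS at 2 of the 9 genes, Dnmt1 and Tdg, beside 14.6% of all protein-coding genes. Max peaks lay there at 5 genes, Dnmt1, Dnmt3a, Dnmt3b, Uhrf1 and Tet2, beside 34.8% of protein-coding genes. Dnmt1 was the gene of the 9 with both peaks (12.7% of protein-coding genes), and its peaks overlapped (12.4%). Max without Bio-Myc was found at 4 genes (22.1%), and Bio-Myc without Max at 1 gene, Tdg (1.98%). Dnmt3l, Tet1 and Tet3 had neither peak (63.2%). Among so few genes, the Bio-Myc count is close to its background and says nothing particular of the group.

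The count depended on the window for Bio-Myc. Within 5 kb it rose to 5 genes, adding Dnmt3a, Tet1 and Tet2, beside 16.6% of protein-coding genes, and Max stayed at the same 5 genes (38.6%). Both peaks were then found at 3 genes, Dnmt1, Dnmt3a and Tet2 (14.5%). With the TSS itself covered by the peak, Bio-Myc was at 2 genes (13%) and Max at 3 genes, Dnmt1, Dnmt3b and Uhrf1 (30%). The 9 genes had a median of 6 annotated TSSs, against 2 for protein-coding genes, so they offered more positions for a peak to be counted. When only the outermost TSS of each gene was used, Bio-Myc lay within 1 kb at 2 genes (13.6%) and within 5 kb at 4 genes (15.5%). On the same basis Max lay within 1 kb at 4 genes (32.2%) and within 5 kb at 5 genes (36.5%). Within 1 kb of any TSS, Bio-Myc without Max was seen at Tdg (1.98% of protein-coding genes), with a low score of 91.5. Of the 3275 protein-coding genes with Bio-Myc there, 443 had no Max. Max without Bio-Myc was seen at Dnmt3a, Dnmt3b, Uhrf1 and Tet2 (22.1%). These few genes do not set the branches of the pathway apart.

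**Figure D1:**
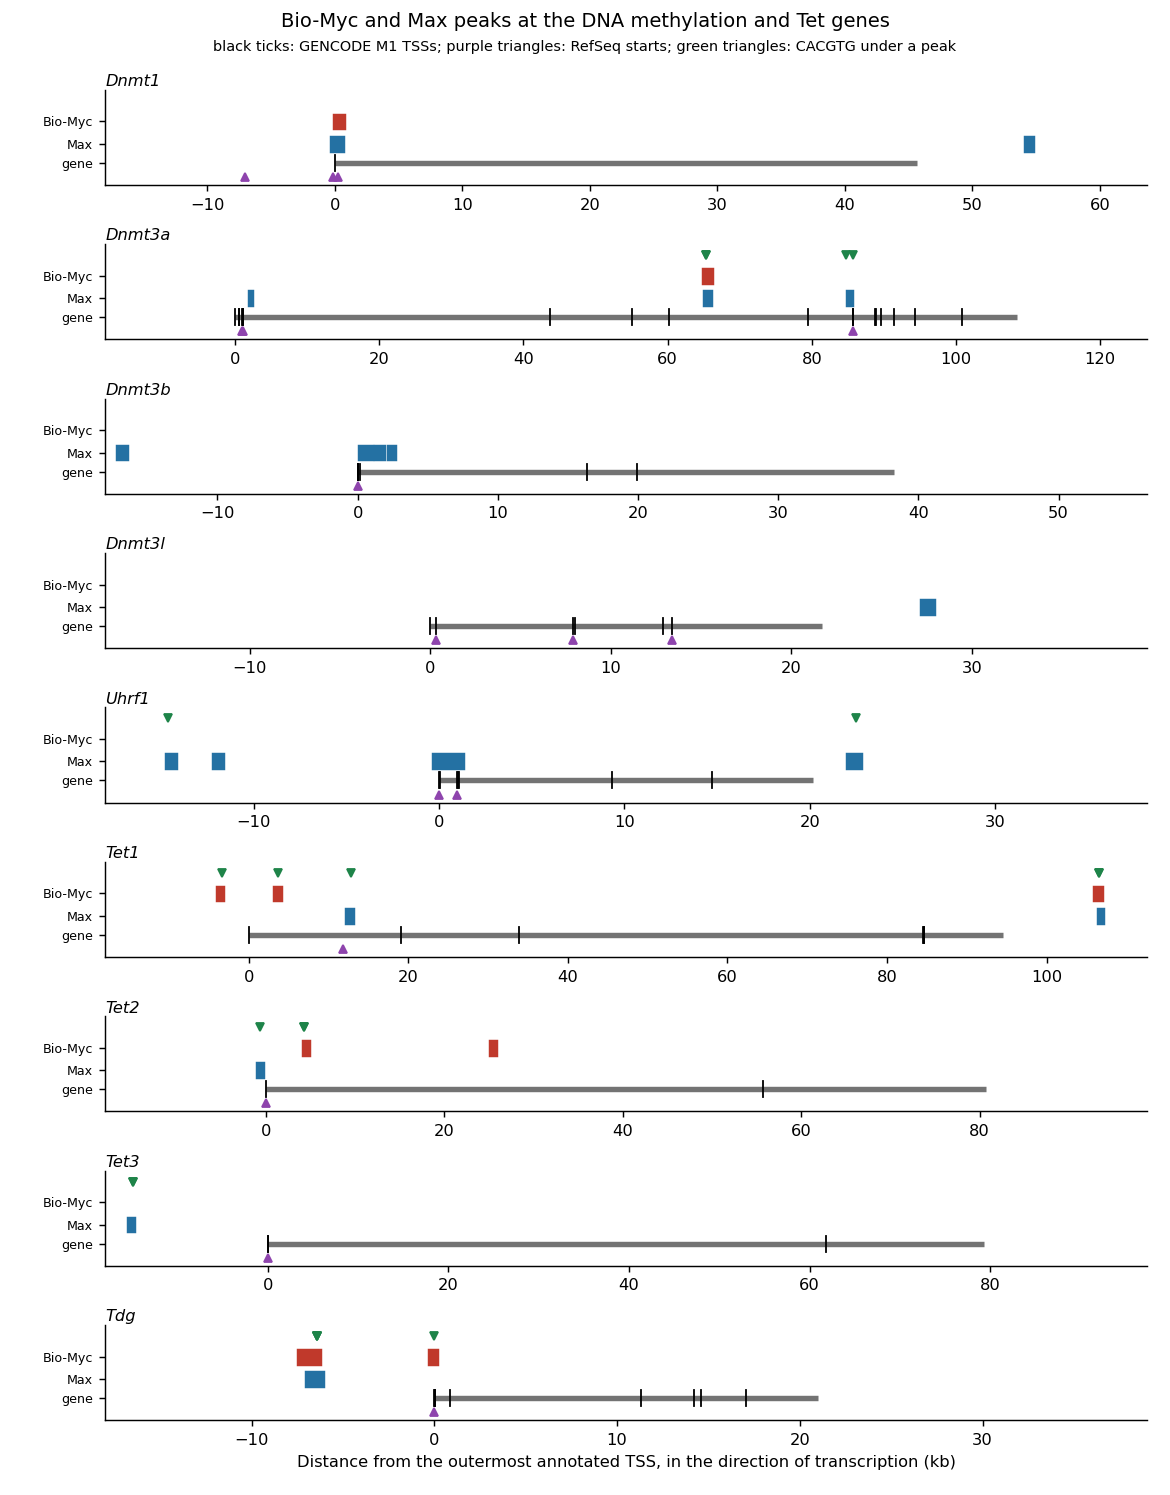
Positions of Bio-Myc peaks (red) and Max peaks (blue) along the 9 genes, drawn in the direction of transcription with the distance from the outermost TSS in kb; ticks are annotated TSSs, purple triangles RefSeq starts and green triangles CACGTG under a peak. The Dnmt1 start and the Dnmt3a intron carry boxes in both rows, whereas the boxes at Dnmt3b, Uhrf1 and Tet2 starts are in the Max row and the box at the Tdg start is in the Bio-Myc row. Boxes in both rows also lie outside the genes, beyond the end of Tet1 and upstream of Tdg.

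The E-Boxes under peaks within 5 kb of a TSS are shown because they are the sites that the Myc-Max dimer prefers. Each is printed 5′ to 3′ on the strand of its gene, in mm9, with CACGTG in capitals and 10 bases to either side.
Dnmt3a, shared intronic site, chr12:3871365-3871390, plus strand: gagcccggcaCACGTGgcgatacaga
Dnmt3a, Max, internal promoter, chr12:3890801-3890826, plus strand: gagacactagCACGTGcgtgggagtg
Dnmt3a, Max, internal promoter, chr12:3891654-3891679, plus strand: cagtggggccCACGTGacctggagtt
Tet1, Bio-Myc, intron, chr10:62358172-62358197, minus strand: ttccagcaccCACGTGgtggctcaaa
Tet1, Bio-Myc, upstream, chr10:62365169-62365194, minus strand: tgggagccacCACGTGgttgctaagg
Tet2, Bio-Myc, intron, chr3:133203021-133203046, minus strand: atcagcagagCACGTGtatcactgtg
Tet2, Bio-Myc, intron, chr3:133203050-133203075, minus strand: gcagccagagCACGTGtatcactgtg
Tet2, Max, promoter, chr3:133208016-133208041, minus strand: ctgcgcggccCACGTGgccaaagtaa
Tdg, Bio-Myc, promoter, chr10:82092545-82092570, plus strand: tggccagcatCACGTGatggcgaggc

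CACGTG reads the same on both strands. It was present in 7.15% of 32851 RefSeq promoters of 300 bases (GRCm38.p6) and in 27.8% of the 22380 regions within 1 kb of the outermost TSS of protein-coding genes, so a match by itself is a description and not a site. Of the peaks within 1 kb of a TSS, 49.7% of 2984 Bio-Myc peaks and 36.7% of 7884 Max peaks held CACGTG across all genes. Among the 9 genes, 8 peaks lay within 1 kb of a TSS, and 3 of these, at Dnmt3a, Tet2 and Tdg, held CACGTG. The promoter peaks of Dnmt1, Dnmt3b and Uhrf1 did not. Within 5 kb, 5 of 6 Bio-Myc peaks and 3 of 9 Max peaks held CACGTG, of which 1 site in Dnmt3a was under both. Of the peaks farther than 1 kb from any TSS, 51.1% of 978 Bio-Myc and 40.7% of 3686 Max peaks held it across all genes.

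Dnmt1, the maintenance methyltransferase (ENSMUSG00000004099.8, chr9:20711650-20757317, minus strand), had 1 annotated TSS at 20757317. The Bio-Myc peak (20756522-20757478, 957 bp) had a score of 157 and ranked 1479 of 3962, or 37.3% from the top of its list. The Max peak (20756571-20757705, 1135 bp) had a score of 306 and ranked 2381 of 11570, or 20.6% from the top. They shared 908 bp, with their centres 138 bp apart, and both covered the TSS. Both touched exonic 5′ UTR and coding sequence and were centred in an intron. Neither held CACGTG. Both held 1 copy of the variant E-Box CACGCG, 309 bp downstream of the TSS. Across all genes this motif, counted on either strand, was in 55.5% of 2984 Bio-Myc and 48% of 7884 Max promoter peaks. The copy is shown here as its reverse complement CGCGTG, in capitals.
Dnmt1, Bio-Myc and Max, chr9:20756993-20757018, minus strand: cttcctgtcgCGCGTGcccttagctg
RefSeq places 3 starts at Dnmt1. Those at 20757423 and 20757067 were covered by both peaks, and the third, at 20764332, lay 6854 bp from the nearest Bio-Myc peak and 6627 bp from the nearest Max peak.

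Uhrf1, which binds hemimethylated CpG and brings Dnmt1 to it (ENSMUSG00000001228.8, chr17:56442744-56462909, plus strand), carried the highest-ranked peak of the group. Its Max peak (56442370-56444074, 1705 bp) had a score of 690 and ranked 476 of 11570, or 4.11% from the top, and it covered 5 of the 7 annotated TSSs. No Bio-Myc peak was near, and the nearest lay 45.4 kb upstream at Fem1a, a gene named after its position was seen, with a score of 245. The 2 maintenance genes therefore differed in the lists, with overlapping peaks at Dnmt1 and Max alone at Uhrf1. The 7 Uhrf1 TSSs include starts 9.34 and 14.7 kb into the gene. Within 1 kb of any of the 7, 5 copies of CACGTG lay outside the peak. The Uhrf1 Max peak itself held none. It held 8 copies of CACGCG, counted on both strands, where 48% of Max promoter peaks held at least 1 and 9 of 7884 (0.114%) held as many. The peak was wide, and 5 of the 309 Max promoter peaks at least as wide (1.62%) held as many. CACGCG itself contains CpGs, and neither share was matched for the CpG content of the peak (observed to expected CpG ratio 0.732). Near the peak centre, CACGCG overlaps CGCGTG within CACGCGTG, so that 2 of the 8 copies share bases. Both copies of this pair and 1 copy at either side of it are shown, each in a window of its own with that copy in capitals.
Uhrf1, 36 bp from the peak centre, chr17:56443174-56443199, plus strand: aactttcccgCGCGTGgggtgagatc
Uhrf1, 2 bp from the peak centre, chr17:56443207-56443232, plus strand: ggccattgccCACGCGtgggttccac
Uhrf1, 0 bp from the peak centre, chr17:56443209-56443234, plus strand: ccattgcccaCGCGTGggttccacac
Uhrf1, 114 bp from the peak centre, chr17:56443323-56443348, plus strand: aagtttcccgCGCGTGgctcggggca

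Dnmt3a, a de novo methyltransferase (ENSMUSG00000020661.9, chr12:3806007-3914443, plus strand), had 18 TSSs over 101 kb and 3 places with peaks, of which 2 were within 1 kb of a TSS. Transcripts from the 5′ cluster, with 2727 coding bases, encode the long form, and transcripts from the internal promoter, with 2070 coding bases, encode the shorter form known as Dnmt3a2, which is the main form in ESCs. At the 5′ cluster, a Max peak (3807859-3808499) with a score of 104, 78.2% from the top, lay 699 bp downstream of the TSS at 3807160 and held no CACGTG. At the internal promoter, a Max peak (3890695-3891698) with a score of 157, 51.1% from the top, ended 30 bp upstream of the TSS at 3891728. It held 2 copies of CACGTG, 59 and 912 bp upstream of that TSS. A miRNA annotated on the minus strand, AC159324.1, starts nearer to the centre of that peak than Dnmt3a does, at 465 against 532 bp. Neither promoter had a Bio-Myc peak.

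The strongest Bio-Myc peak near any of the 9 genes was in an intron of Dnmt3a, away from both promoters. It (3870720-3872234, 1515 bp) had a score of 351 and ranked 328 of 3962, or 8.28% from the top. A Max peak (3870931-3872208, 1278 bp) with a score of 287, 22.8% from the top, lay wholly inside it, with the centres 92 bp apart. Bio-Myc started 4529 bp and Max 4740 bp downstream of the TSS at 3866191, which belongs to a transcript with 283 coding bases and a CpG-poor start (observed to expected CpG ratio 0.163). The single CACGTG under both peaks was 100 bp from the Bio-Myc centre and 192 bp from the Max centre. Across all genes, 50.4% of 978 Bio-Myc peaks outside promoters overlapped a Max peak, as this one did, against 82.9% of 2984 at promoters.

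Dnmt3b, the other de novo methyltransferase (ENSMUSG00000027478.9, chr2:153475186-153513466, plus strand), had 3 Max peaks in a row at its 5′ end. The first (153475236-153476265) covered the TSS at 153475353, with a score of 141, 57.5% from the top. The others (153476382-153477160 and 153477275-153477937) had scores of 115 and 105 and lay 1029 and 1922 bp downstream of a TSS, the nearer of them just outside the 1-kb window. None held CACGTG, and the first held 3 copies of CACGCG. Antisense transcript 7530422B04Rik starts at 153476022 and was nearer to the centre of each of the 3 peaks than any Dnmt3b TSS, at 272 against 397 bp for the first, so the peaks cannot be assigned to either transcript. The nearest Bio-Myc peak lay 206 kb upstream, with a score of 80.1, close to the lowest of its list.

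Dnmt3l, the catalytically inactive cofactor of both enzymes (ENSMUSG00000000730.7, chr10:77504692-77526367, plus strand), had no peak within 5 kb of its 6 TSSs. The nearest Max peak, with a score of 142, lay 13.7 kb downstream of a TSS, beyond the end of the gene, and the nearest Bio-Myc peak, with a score of 102, lay 32.2 kb upstream. These peaks were at Icosl and Pfkl, genes named after their positions were seen. There were 2 copies of CACGTG within 1 kb of the Dnmt3l TSSs and 8 within 5 kb, none under a peak. The 3 genes of de novo methylation thus ranged from a shared intronic peak, through Max alone, to no peak.

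Tet1, a 5-methylcytosine dioxygenase (ENSMUSG00000047146.8, chr10:62267318-62361866, minus strand), had no peak within 1 kb of its 6 annotated TSSs, and Bio-Myc and Max were found at separate places. A Bio-Myc peak (62357681-62358835) with a score of 132, 48.3% from the top, lay 3031 bp downstream of the TSS at 62361866, in an intron. A U6 snRNA gene starts nearer to its centre than Tet1, at 1996 against 3608 bp. Another Bio-Myc peak (62365008-62365934), with a score of 84.1, 92.9% from the top, lay 3142 bp upstream of the same TSS. Each held 1 CACGTG, and neither overlapped a Max peak. The 16 central bases of these E-Box windows occurred 207 and 1090 times in mm9, although the 26-base windows occurred once each. For the other 8 windows printed with CACGTG the 16 bases occurred 1 to 3 times.

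The Max peak of Tet1 (62348723-62349761, 1039 bp) had a score of 155, 51.7% from the top, and lay 5961 bp from the nearest TSS of the annotation used here. It was 311 bp downstream of the RefSeq start at 62350072, which lies 11.8 kb into the gene and 7310 bp from the nearest annotated TSS, and which had a CpG ratio of 0.71, against 0.27 at the outermost TSS. With RefSeq starts added, which was done after the data were examined, Tet1 became the sixth gene with Max at a promoter and Bio-Myc stayed at 2 genes. The single CACGTG under this peak was 196 bp from the peak centre and 1023 bp downstream of the RefSeq start.
Tet1, Max, chr10:62349034-62349059, minus strand: tatcgtgctgCACGTGagctccggga

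Tet2, a related dioxygenase (ENSMUSG00000040943.7, chr3:133126643-133207354, minus strand), had Max at its promoter and Bio-Myc in its body. The Max peak (133207578-133208437) had a score of 239, 29.9% from the top, and ended 224 bp upstream of the TSS at 133207354. Its CACGTG was 22 bp from the peak centre and 672 bp upstream of the TSS. A Bio-Myc peak (133202449-133203307) with a score of 106, 66.9% from the top, lay 4047 bp downstream of that TSS in an intron. It held 2 copies of CACGTG that start 29 bp apart, and the 2 windows printed above were identical at 21 of 26 positions, in a single run of 21. Another Bio-Myc peak (133181470-133182307), with a score of 90.1, 85.2% from the top, lay 25.0 kb downstream and held no CACGTG. Neither Bio-Myc peak overlapped a Max peak.

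Tet3 (ENSMUSG00000034832.8, chr6:83312367-83391672, minus strand), the third dioxygenase, had no peak within 5 kb of its 3 TSSs. The nearest Max peak (83406362-83407252) lay 14690 bp upstream, with a score of 115, 71.3% from the top, in GC-rich sequence (75.1% GC) with 2 copies of CACGTG. The nearest Bio-Myc peak, with a score of 116, was 53.6 kb from a TSS. There was no CACGTG within 1 kb of a Tet3 TSS.

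Tdg, the glycosylase that excises oxidized methylcytosine (ENSMUSG00000034674.11, chr10:82092573-82113544, plus strand), had Bio-Myc and no Max within 1 kb, and was alone among the 9 genes in this. Within 5 kb, Tet1 also had Bio-Myc and no Max. The Tdg Bio-Myc peak (82092205-82092797, 593 bp) had a score of 91.5 and ranked 3273 of 3962, or 82.6% from the top, and covered 3 of 8 TSSs. Its CACGTG lay 13 bp upstream of the TSS at 82092573 and 56 bp from the peak centre. The nearest Max peak (82085513-82086527), with a score of 155, lay 6046 bp upstream at 1190007I07Rik, a gene named after its position was seen, and overlapped another Bio-Myc peak there. Tdg was lost from the Bio-Myc count at a p-value limit of 1e-11.

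**Figure D2:**
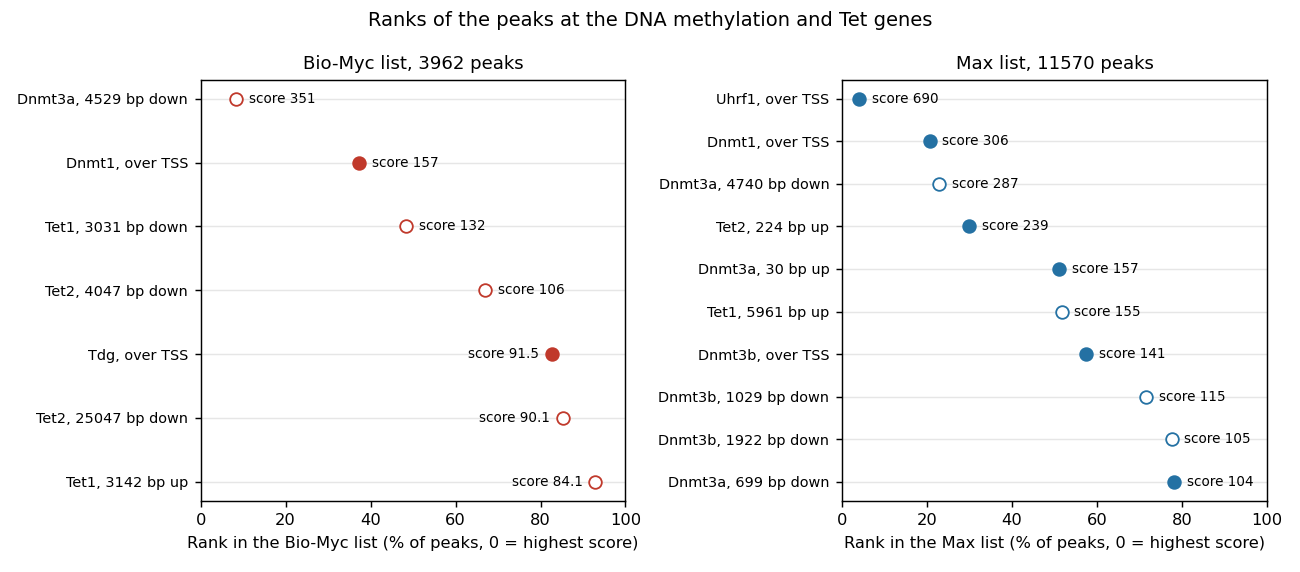
Rank of each peak in a gene or within 5 kb of a TSS, as the percent of its list counted from the highest score, with Bio-Myc peaks on the left and Max peaks on the right; filled circles lie within 1 kb of an annotated TSS and open circles do not. The Uhrf1 Max peak (4.11%) and the intronic Dnmt3a Bio-Myc peak (8.28%) lie at the top and the remaining peaks are spread over the lists, with Tdg at 82.6%.

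Of the 8 promoter peaks of these genes, 4 scored above the median of their list, 1 of 2 for Bio-Myc and 3 of 6 for Max. At a score of at least 110, Bio-Myc remained at Dnmt1 (10.2% of protein-coding genes) and Max at 5 genes (28.8%). At 150 or more, Bio-Myc again remained at Dnmt1 (6.85%) and Max at 4 genes, Dnmt1, Dnmt3a, Uhrf1 and Tet2 (22.6%). Within 5 kb, a Max peak overlapped 2 of 6 Bio-Myc peaks (33.3%), at Dnmt1 and in Dnmt3a, and these were the 2 highest-scoring of the 6. Across all genes the share was 82.9% of the Bio-Myc peaks at promoters and 50.4% elsewhere. Of the 9 Max peaks, 2 (22.2%) overlapped Bio-Myc, beside 32.1% of 7884 Max peaks at promoters and 13.8% of 3686 elsewhere, so this share is no result about these genes.

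**Figure D3:**
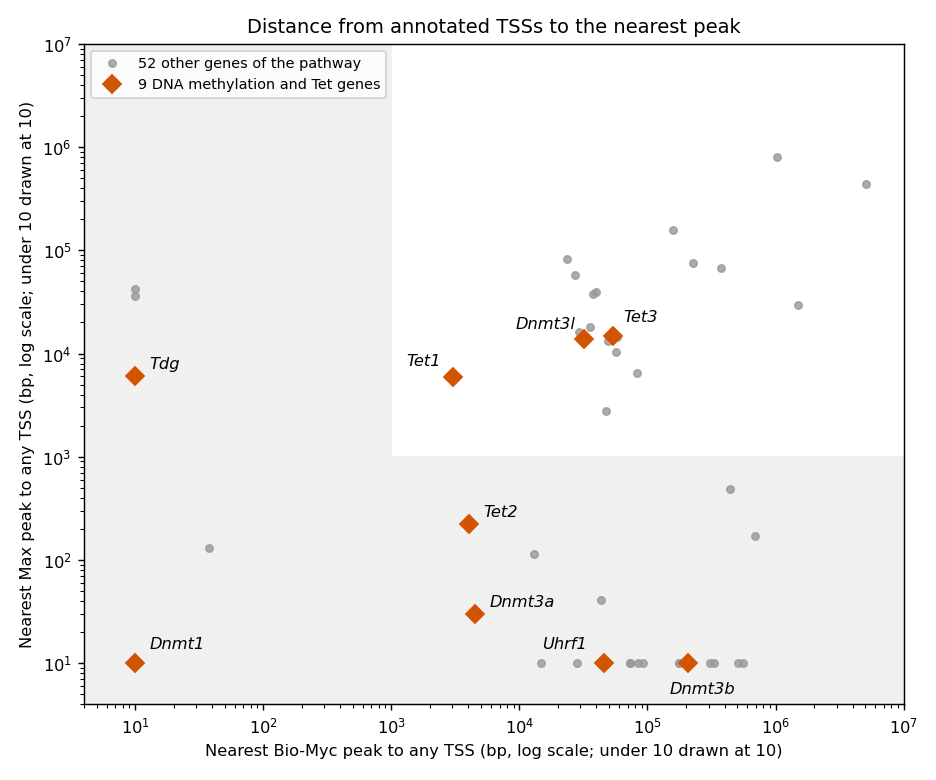
Distance in bp, on log axes, from the TSSs of each gene to the nearest Bio-Myc peak (horizontal) and the nearest Max peak (vertical), for the 9 genes (diamonds) and 52 other genes of the pathway (grey circles); shading marks distances within 1 kb. Dnmt1 lies in the corner within 1 kb of both, Tdg within 1 kb of Bio-Myc alone, and Dnmt3l and Tet3 beyond 10 kb of both.

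CpG content was compared because most genes with a Bio-Myc or Max peak had CpG-rich starts. The CpG ratio is the observed over expected number of CpGs within 500 bp of the outermost TSS. Its median was 0.782 for the 3275 protein-coding genes with Bio-Myc, 0.729 for the 4956 with Max and no Bio-Myc, and 0.318 for the 14149 with neither. At a ratio of at least 0.6, 27% of 10211 genes had Bio-Myc and 59.8% had Max within 1 kb, against 4.22% and 13.8% of 12169 genes under it. Dnmt3b (0.83), Tdg (0.872) and Tet2 (0.92) were above that limit, and each had a peak, Bio-Myc at 1 and Max at 2 of the 3. Of the 6 genes under it, Bio-Myc was at Dnmt1 (0.586) and Max at Dnmt1, Uhrf1 (0.532) and Dnmt3a (0.434), and Tet3 (0.546), Tet1 (0.27) and Dnmt3l (0.212) had neither. The outermost TSS was not always the one beside the peak. At the Dnmt3a TSS 3807160 the ratio was 0.987, and at the Uhrf1 TSS 56443736, which the Max peak covered, it was 0.839. At the internal Dnmt3a TSSs 3891728 and 3891744, beside the Max peak with a score of 157, it was 0.52 and 0.499. For Tet1, counted above as having neither, it was 0.71 at the RefSeq start, 311 bp from a Max peak. How far CpG content accounts for the pattern was not tested.

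**Figure D4:**
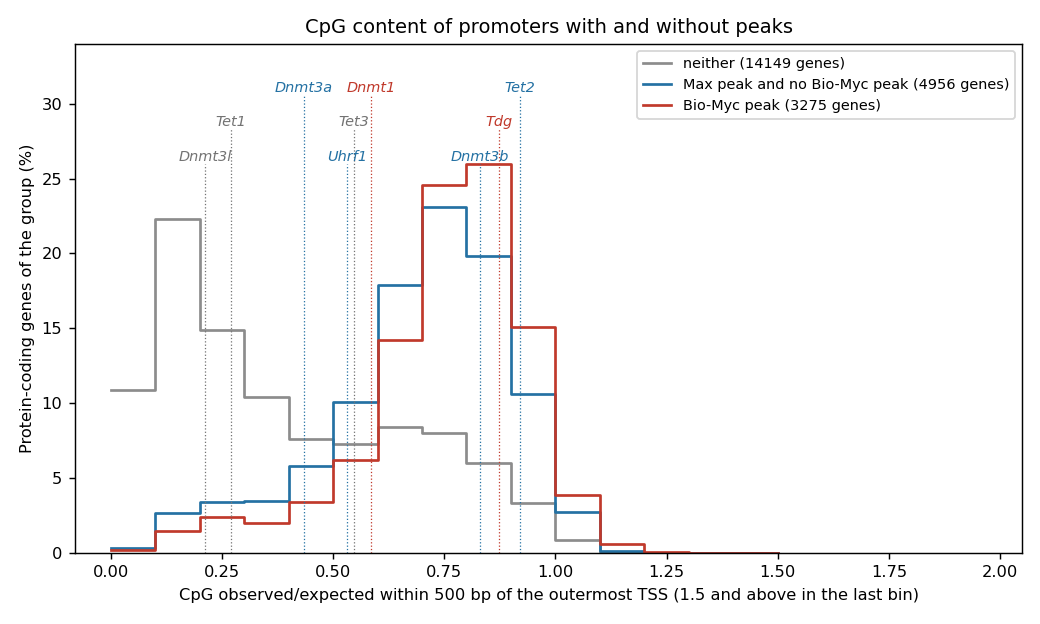
Distribution of the CpG observed to expected ratio at the outermost TSS, in percent of the protein-coding genes with a Bio-Myc peak (red), with a Max peak and no Bio-Myc peak (blue) or with neither (grey) within 1 kb of any TSS. Dotted lines mark the 9 genes in the colour of their own group, from Dnmt3l at 0.212 to Tet2 at 0.92.

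The 52 other genes of the pathway were a list in 5 groups, and all were found in the annotation. Bio-Myc lay within 1 kb of a TSS at 19 (36.5%) and Max at 33 (63.5%), with both at 17, Max without Bio-Myc at 16, Bio-Myc without Max at 2 and neither at 17. These shares stand beside the 14.6% and 34.8% of protein-coding genes given above. Most of the 52 genes had a CpG ratio of at least 0.6. Among all protein-coding genes at that ratio the shares were 27% for Bio-Myc and 59.8% for Max, the latter near the 63.5% here. No test was run, since the list was chosen with earlier results of these data known. Scores are given below as Bio-Myc and then Max, each on the scale of its own list.

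Among 11 genes listed under methyl-CpG readers, Bio-Myc lay at 3 and Max at 4. A place in this list does not mean that the protein binds methylated CpG. Mbd3, a subunit of the NuRD corepressor, had scores of 380 and 556. Mbd6 had 120 and 139, and Uhrf2, a paralog of Uhrf1, had 106 and 543. Mbd1 had Max alone, with 223. Uhrf2 thus carried both peaks, where Uhrf1 carried Max alone.

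Of 14 genes of base excision repair, Bio-Myc lay at 4 and Max at 10, including the same 4. The DNA ligase Lig3 had scores of 374 and 233. Ung, the uracil-DNA glycosylase, had 288 and 1370, and its Max peak ranked 68 of 11570. Apex1, the abasic site endonuclease, had 264 and 609, with 4 copies of CACGTG under each peak, and Parp1, a sensor of strand breaks, had 127 and 329. These 4 genes had Max beside Bio-Myc within 1 kb, whereas Tdg, a glycosylase like Ung, had Bio-Myc alone there.

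In the group of 12 genes for targeting and protection of methylation, Bio-Myc lay at 4 and Max at 7. Trim28, the corepressor of KRAB zinc finger proteins, had 234 and 1000. Hells, a chromatin remodeler needed for methylation of repeats, had 173 and 233, and Pcna, the replication clamp that binds Dnmt1, had 126 and 196. Ogt, the O-GlcNAc transferase that binds Tet proteins, had Bio-Myc alone, with 96.

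Methyl donor supply had the highest share of genes with Bio-Myc, 5 of 8, and Max lay at 6. Mat2a, which makes S-adenosylmethionine, had 135 and 981. Mtrr, which reactivates methionine synthase, had 115 and 122. Mat2b, the regulatory subunit of Mat2a, had 100 and 262. All 5 of the Bio-Myc peaks in this group scored under 150. Among 7 genes that supply alpha-ketoglutarate, the Tet cosubstrate, Bio-Myc lay at 3 and Max at 6. Idh3b had 226 and 98, Idh3g had Bio-Myc alone with 148, and Idh2 had Max alone with 317. At a score of at least 150 in the list, 7 of the 52 genes kept Bio-Myc and 22 kept Max.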

How the data were processed

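The authors aligned reads uniquely to mm9 (Bowtie 0.12.7, at most 2 mismatches), removed duplicate reads and ran MACS 1.4.1 on 1 library per ChIP with the mock or IgG ChIP as background and a p-value limit of 1e-08. Each deposited peak has a score, 10 times the negative log10 p-value. Unique alignment leaves out repeated sequence. No value was computed from the mock and IgG libraries alone, which were not used here.

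Peaks were set beside TSSs of GENCODE M1 (Ensembl 65), on the same assembly, in 1-based coordinates. Overlap meant at least 1 bp. CACGTG was counted under whole peaks, and CACGCG on both strands. RefSeq starts (GRCm38.p6) were placed in mm9 by exact match of their promoter sequence, and 16 of 16 matched.

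The members and gene lists were chosen with earlier results of these data known. Named were all 9 members, up to 4 pathway genes a group by Bio-Myc and then Max score, and genes with a TSS nearer to a member's peak than the member (values of 2 pathway genes that this rule names are not reported here); the CACGCG windows, the Tet1 RefSeq start and its window, and the neighbours Fem1a, Icosl, Pfkl and 1190007I07Rik were chosen after their values were seen. Alternatives were other windows, TSS sets, score limits, overlap rules, ranks, parts of the peak and the second motif. RefSeq starts and the background for the outermost TSS were alternatives chosen after seeing the data. Software was samtools 1.23.1 and Python 3.11.15 with pysam 0.24.0, numpy 2.4.6 and matplotlib 3.10.9. All 12 counting steps returned the known answer on a made-up annotation of 400 genes.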

Additional observations from a re-analysis of the deposited data

How the results depend on the processing

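No paired analysis was possible because each ChIP has 1 library and no replicate numbers. Of 61 alternative counts and shares, 53 stayed within 1.5 times, a change of exactly 1.5 times included, and 8 moved by more. Counts and shares have no direction that could reverse. The number of genes with Bio-Myc at a promoter was 2, but 5 with the 5-kb window, and 1 at p-value limits of 1e-15 and 1e-11, where Tdg was lost. With RefSeq starts alone, it was 3 within 5 kb. The number with Max was 5, but 3 with the TSS itself covered, where Dnmt3a and Tet2 were lost, and 6 with RefSeq starts, which added Tet1. The number with both was 1 and rose to 3 with the 5-kb window, and the number with overlapping peaks was 1 and rose to 2. The number with CACGTG under a promoter peak was 3, fell to 2 in the central 500 and 200 bp, where Dnmt3a was lost, and was 6 when CACGCG also counted. Across all genes, 55.5% of Bio-Myc and 48% of Max promoter peaks held CACGCG. Pathway genes with Bio-Myc fell from 19 to 7 at a p-value limit of 1e-15. Ranked by score divided by width, Tdg moved from 82.6% to 41.2%, Dnmt3b from 57.5% to 90.3% and Uhrf1 from 4.11% to 8.7%. The causes of these moves were not tested beyond what each setting changes by construction. With the depth unknown, no limit of detection can be given for genes without a peak.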
